A study of Arabidopsis thaliana with 12 samples.

Results

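Gibberellins are hormones that promote stem growth and germination. The genes described here act at their last synthetic step, at their inactivation, at their perception and at their repressors. They are *GA3OX1* (*At1g15550*), *GA2OX1* (*At1g78440*), *GA2OX2* (*At1g30040*), *GID1B* (*At3g63010*) and *RGL1* (*At1g66350*). These 5 genes were chosen by name and not by a measured threshold, but with earlier results of these data known. Each was read by 1 probe set among the 22746 tested. Their probe sets were found through the platform annotation for *GID1B* and through the study's gene tables for the other 4. *GA3OX1*, *GA2OX1* and *GA2OX2* were listed there among genes called in *phyB-77*, and *RGL1* in a table ordered by its change in *bri1-5*. A call of these 4 genes in the same contrast, or in another that uses the same arrays, is therefore not independent evidence of its direction.

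GA3OX enzymes convert inactive precursors into bioactive gibberellin, and the GA2OX enzymes remove it again. Bioactive gibberellin binds the GID1 receptors, which then capture DELLA proteins such as RGL1 and pass them to the F-box protein SLY1 for degradation. DELLA proteins restrain growth partly by binding the PIF transcription factors of light signalling and BZR1 of brassinosteroid (BR) signalling. Transcripts of *GA3OX1* and of GID1 genes are known to be raised by DELLA proteins, and those of GA2OX genes by gibberellin itself, so that the pathway feeds back on its own genes. In imbibed seeds active phytochrome is known to raise *GA3OX1* and to lower *GA2OX2*.

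RNA came from whole seedlings, aged 7 days per the labels although a legend of the study gives a shorter time, that were grown in continuous red light and was hybridized to 12 Affymetrix ATH1 arrays, 3 per genotype. The genotypes were the double mutant *phyB-77 bri1-5*, the single mutant *phyB-77*, the single mutant *bri1-5* and the wild type Ws-2. *phyB-77*, isolated as *gul2-1* in mutagenized Ws-2, has a premature stop codon in the photoreceptor gene *PHYB*, and *bri1-5* is a weak allele of the BR receptor gene *BRI1*. The double mutant carries both. The arrays are labelled as biological replicates, but it is not stated that they came from separately grown seedlings, so the p-values cover only the variation among these arrays, part of which may be technical. Values are log2 signals made by RMA, the robust averaging of the probes of each gene across arrays, so that a difference of 1 is a doubling. A gene is called higher or lower where the Benjamini-Hochberg adjusted p of the limma fit over all probe sets was under 0.01.

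The array medians lay between 5.87 and 5.99, and arrays correlated at 0.993 to 0.998 within a genotype and at 0.969 to 0.988 between genotypes. Both shoot and root RNA were present. The mean log2 signal of 4 measured green shoot markers was 13.08 to 13.11 on the arrays of *phyB-77 bri1-5*, 12.53 to 12.64 in *phyB-77*, 13.18 to 13.28 in *bri1-5* and 13.19 to 13.24 in Ws-2, and 4 of 4 fell in *phyB-77*. For 8 root markers the mean was 7.76 to 7.80, 6.87 to 7.07, 8.60 to 8.70 and 7.98 to 8.04 in the same order of genotypes. Of these, 7 fell in *phyB-77*, and 6 rose and 1 fell in *bri1-5*. For 17 seed storage and maturation markers it was 8.82 to 8.90, 9.26 to 9.30, 5.96 to 6.12 and 6.03 to 6.14, and 15 of 17 rose and 1 fell in the double mutant, 17 rose in *phyB-77*, and 4 rose and 4 fell in *bri1-5*. The one that fell in the double mutant was the albumin gene *SESA1* (-0.57, adjusted p = 0.0011). These counts are against Ws-2, where 6.55% of all probe sets rose and 8.01% fell in *phyB-77 bri1-5*. The shares were 8.56% and 6.77% in *phyB-77*, and 10.5% and 8.61% in *bri1-5*. Most of the seed and root markers were named through the study's tables, so these counts are not independent evidence either. The log2 scale has no 0 and the files hold no detection calls, so absence of a marker could not be read. In whole seedlings, fewer cells of a type and less RNA per cell cannot be told apart. The part of these tissue signatures in the differences of the gibberellin genes was not tested.

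**Figure D1:**
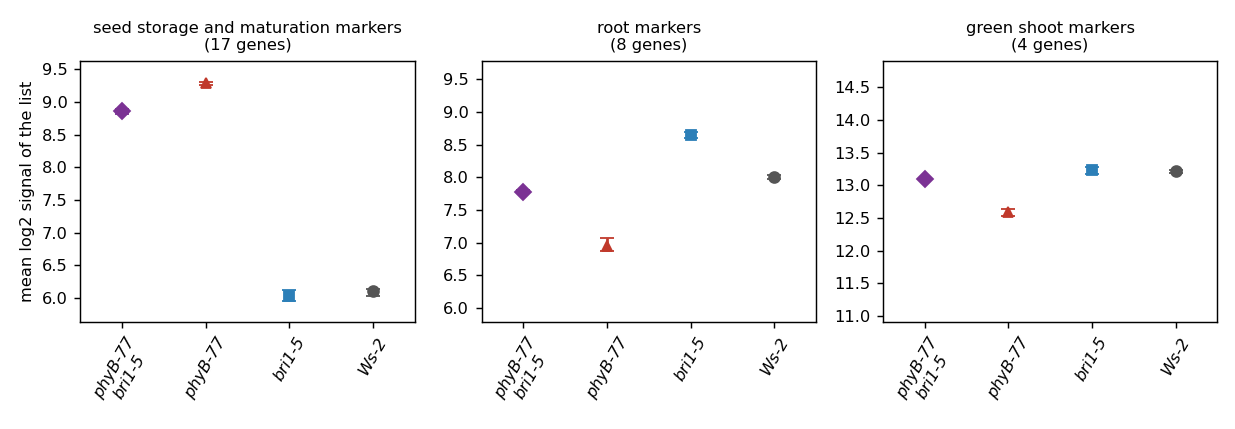
Mean log2 signal (y axis) of 17 seed, 8 root and 4 green shoot markers in the 4 genotypes (x axis), with points at the mean of 3 arrays and bars from the lowest to the highest array. The seed markers lay between 8.82 and 9.30 in both genotypes with *phyB-77* and between 5.96 and 6.14 in the others, and the root markers were lowest in *phyB-77* and highest in *bri1-5*.

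All 5 genes had their highest signals in *phyB-77*, where all 5 rose relative to Ws-2 (median log2 difference 0.99, against 0.01 over all probe sets). Over all probe sets, 8.56% were called higher and 6.77% lower in this comparison. The rise was near 3-fold for *GA3OX1*, about 2-fold for both GA2OX genes and smaller for *GID1B* and *RGL1*. In *bri1-5*, 3 of the 5 fell relative to Ws-2, namely *GA2OX2*, *GID1B* and *RGL1*, where 10.5% of all probe sets were called higher and 8.61% lower. In *phyB-77 bri1-5*, 2 of the 5 fell relative to Ws-2, namely *GA2OX1* and *GID1B*, where 6.55% of all probe sets were called higher and 8.01% lower. These 3 comparisons share the Ws-2 arrays.

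**Figure D2:**
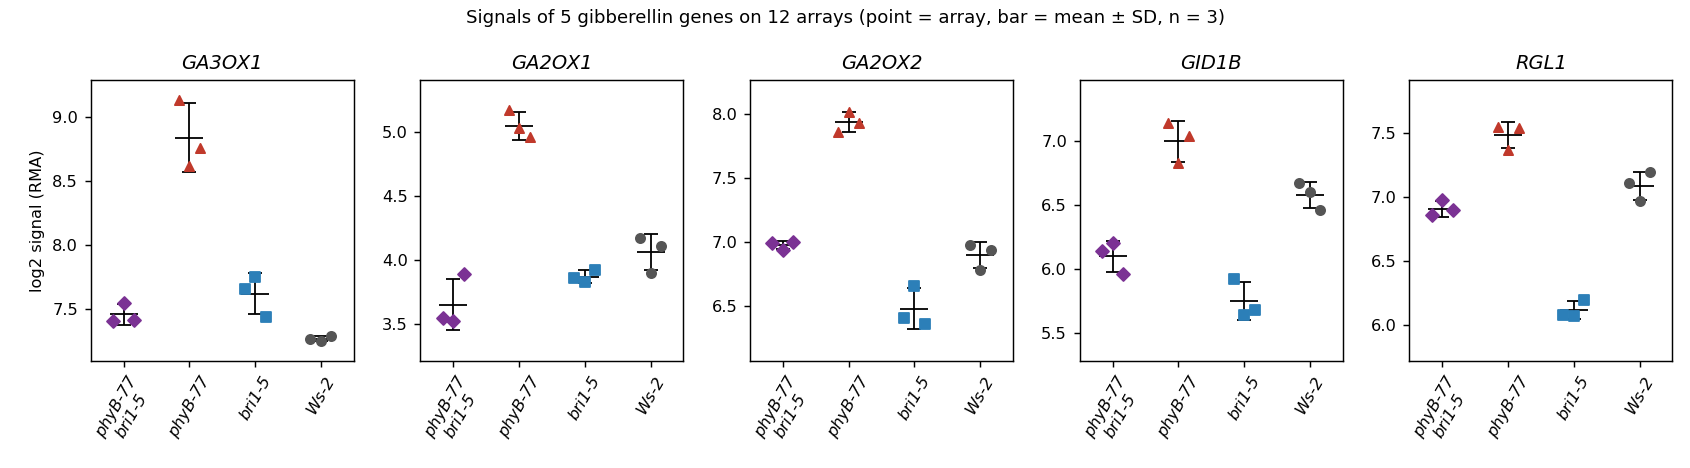
log2 signal (y axis) of the 5 gibberellin genes on each of 3 arrays per genotype (points), with the mean and SD as bars. For every gene the 3 *phyB-77* arrays lie above all other arrays, and for *GA3OX1* they lie between 8.62 and 9.14 while the other 9 arrays lie between 7.25 and 7.75.

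*GA3OX1*, the enzyme gene for the last step to bioactive gibberellin, had log2 signals of 7.41, 7.55 and 7.42 in *phyB-77 bri1-5*, 9.14, 8.62 and 8.76 in the single mutant *phyB-77*, 7.66, 7.75 and 7.44 in *bri1-5*, and 7.27, 7.25 and 7.29 in Ws-2. The *phyB-77* arrays stood clear of all others, and the 3 remaining genotypes lay close together. Its log2 difference between *phyB-77* and Ws-2 was 1.57 (standard error 0.12, adjusted p = 8.6e-09), a 2.96-fold rise. In the presence of *bri1-5* the *phyB-77* mutation gave -0.16 (95% interval -0.41 to 0.09, adjusted p = 0.36), and the arrays of *phyB-77 bri1-5* and *bri1-5* overlapped. The order of levels was *phyB-77*, then *bri1-5*, then the double mutant, then Ws-2, and below *phyB-77* no neighbours were called different. *phyB-77 bri1-5* exceeded Ws-2 by 0.19 (interval -0.06 to 0.43, adjusted p = 0.3), and *bri1-5* exceeded Ws-2 by 0.35 (interval 0.10 to 0.59, adjusted p = 0.034). Without *phyB-77* replicate 1 the adjusted p of the last difference became 0.0094, which would be a call.

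*GA2OX1*, which encodes a gibberellin-inactivating oxidase, had 3.55, 3.52 and 3.89 in *phyB-77 bri1-5*, 5.17, 5.03 and 4.96 in the single mutant *phyB-77*, 3.86, 3.83 and 3.92 in *bri1-5*, and 4.17, 3.90 and 4.11 in Ws-2. Again the *phyB-77* arrays were separate, and *bri1-5* overlapped with both other genotypes. The gene rose by 0.99 in *phyB-77* against Ws-2 (standard error 0.11, adjusted p = 1.3e-06). In the *bri1-5* background the same mutation gave -0.21 (interval -0.44 to 0.01, adjusted p = 0.16). The order of levels was *phyB-77*, Ws-2, *bri1-5*, *phyB-77 bri1-5*. The difference between *bri1-5* and Ws-2 was -0.19 (interval -0.42 to 0.03, adjusted p = 0.2). *phyB-77 bri1-5* fell against Ws-2 by 0.41 (adjusted p = 0.0096), a call at the edge of the threshold that was lost in 7 of 12 fits without 1 array (Ws-2 replicate 1 or 3, *bri1-5* replicate 1, *phyB-77* replicate 2 or 3, or *phyB-77 bri1-5* replicate 1 or 2), with adjusted p between 0.0024 and 0.063 over the 12. Its mean of 4.16 over all arrays was below the 5.09 that bounded the dimmest 40% of probe sets.

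*GA2OX2*, which encodes another gibberellin-inactivating oxidase, had 6.99, 6.94 and 7.00 in *phyB-77 bri1-5*, 7.86, 8.02 and 7.93 in the single mutant *phyB-77*, 6.41, 6.66 and 6.36 in *bri1-5*, and 6.98, 6.78 and 6.94 in Ws-2. The *phyB-77* arrays were highest and the *bri1-5* arrays lowest, while *phyB-77 bri1-5* and Ws-2 overlapped (0.08, interval -0.12 to 0.28, adjusted p = 0.63). The *phyB-77* mutation raised it by 0.50 in the *bri1-5* background (adjusted p = 5.6e-04) and by 1.04 in Ws-2 (adjusted p = 1.5e-07), with a standard error of 0.10 for both. *bri1-5* lowered it against Ws-2 by a log2 difference of -0.42 (adjusted p = 0.0024), which was lost in 4 of 12 fits without 1 array (Ws-2 replicate 1 or 3, or *bri1-5* replicate 1 or 3), with adjusted p of at most 0.015, and in a fit of the 6 arrays compared alone (adjusted p = 0.014).

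*GID1B*, a gibberellin receptor gene, had 6.14, 6.20 and 5.96 in *phyB-77 bri1-5*, 7.14, 6.83 and 7.04 in the single mutant *phyB-77*, 5.92, 5.64 and 5.68 in *bri1-5*, and 6.67, 6.60 and 6.46 in Ws-2. The 4 genotypes did not overlap, in the order *phyB-77*, Ws-2, *phyB-77 bri1-5*, *bri1-5*. It fell in *bri1-5* against Ws-2 by a log2 difference of -0.83 (standard error 0.11, adjusted p = 1.1e-05) and in *phyB-77 bri1-5* against Ws-2 by -0.48 (adjusted p = 0.0031). It rose in *phyB-77* against Ws-2 by 0.43 (adjusted p = 0.0067). *phyB-77 bri1-5* exceeded *bri1-5* by 0.36 (interval 0.13 to 0.58), which was not called (adjusted p = 0.018). The rise in *phyB-77* was lost when each array was centred on its median (0.37, adjusted p = 0.013) or the arrays were quantile normalized (0.36, adjusted p = 0.014), and both of these scalings called the difference between *phyB-77 bri1-5* and *bri1-5* (0.40, adjusted p = 0.0061, and 0.41, adjusted p = 0.0051), as did the fit without *bri1-5* replicate 1 (0.44, adjusted p = 0.0071). Without 1 array the rise was also lost in 6 of 12 fits (any Ws-2 array, *phyB-77* replicate 1 or 3, or *phyB-77 bri1-5* replicate 1, adjusted p of at most 0.042), and the fall in *phyB-77 bri1-5* in 3 (Ws-2 replicate 1 or 2, or *phyB-77 bri1-5* replicate 3, at most 0.027).

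*RGL1*, which encodes a DELLA repressor, had 6.86, 6.98 and 6.90 in *phyB-77 bri1-5*, 7.55, 7.37 and 7.54 in the single mutant *phyB-77*, 6.08, 6.07 and 6.20 in *bri1-5*, and 7.11, 6.97 and 7.20 in Ws-2. The *bri1-5* arrays stood lowest by a wide gap, and *phyB-77 bri1-5* overlapped with Ws-2. It fell in *bri1-5* against Ws-2 by a log2 difference of -0.98 (standard error 0.09, adjusted p = 2.6e-07), a 1.97-fold change. The *phyB-77* mutation raised it by 0.80 in the *bri1-5* background (adjusted p = 2.8e-06) and by 0.39 in Ws-2 (adjusted p = 0.004). The rise in Ws-2 was lost with arrays centred on their medians (0.33, adjusted p = 0.011) and in 4 of 12 fits without 1 array (Ws-2 replicate 1 or 2, or *phyB-77* replicate 1 or 3, adjusted p of at most 0.03). *phyB-77 bri1-5* differed from Ws-2 by -0.18 (interval -0.38 to 0.01, adjusted p = 0.18).

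The design also asks whether each mutation acted alike in the presence and absence of the other. The interaction takes the difference made by *phyB-77* in the *bri1-5* background and subtracts the one it made in Ws-2. It was called positive for 4.82% and negative for 8.93% of all probe sets. Of the 5 genes, 3 had a called interaction, which was negative: *GA3OX1* (-1.73, standard error 0.17, adjusted p = 9.4e-07), *GA2OX1* (-1.20, standard error 0.15, adjusted p = 1.7e-05) and *GA2OX2* (-0.53, standard error 0.14, adjusted p = 0.0076). These 3 genes are listed among the study's genes called in *phyB-77*, and the interaction subtracts their difference between *phyB-77* and Ws-2. Its negative sign is therefore not independent of the naming. For *GA3OX1* the signal expected in the double mutant from adding both single effects was 9.18, whereas 7.46 ± 0.08 was measured (SD, n = 3). The corresponding values were 4.86 expected and 3.65 ± 0.20 measured for *GA2OX1*, and 7.51 expected and 6.98 ± 0.03 measured for *GA2OX2*. The interaction of *GA2OX2* was the weakest call. It was lost under both other scalings (-0.43 in each, adjusted p = 0.031 and 0.033) and in 8 of 12 fits without 1 array, with adjusted p of at most 0.027. The 4 fits that kept it left out Ws-2 replicate 1, *bri1-5* replicate 1 or 3, or *phyB-77* replicate 1.

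No interaction was called for *GID1B* or *RGL1*. For *GID1B* it was -0.07 (interval -0.39 to 0.25, adjusted p = 0.8), so that the double mutant at 6.10 ± 0.12 lay near the 6.17 expected from addition. With *RGL1* the interaction was 0.40 (interval 0.13 to 0.68, adjusted p = 0.031), and 6.91 ± 0.06 was measured where 6.51 was expected. The positive interaction of *RGL1* was called with arrays centred on their medians (0.51, adjusted p = 0.0074) and with quantile normalization (0.51, adjusted p = 0.0061). Its sign is opposite to that of the oxidase genes under each scaling. The table that named *RGL1* was ordered by its change in the BR receptor mutant, and the interaction subtracts that change. Neither sign is therefore independent of the naming.

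**Figure D3:**
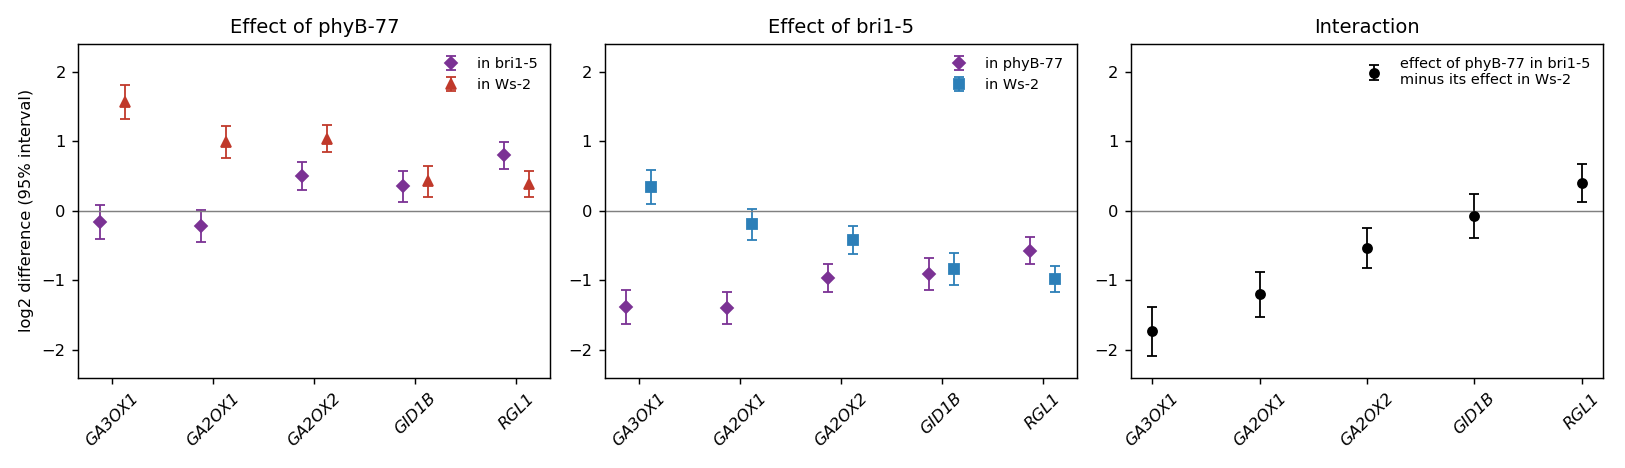
log2 difference (y axis, with 95% interval) of the 5 genes for the *phyB-77* effect in *bri1-5* and in Ws-2 (left), the *bri1-5* effect in *phyB-77* and in Ws-2 (middle) and the interaction (right). *GA3OX1* and *GA2OX1* respond to *phyB-77* in Ws-2 (1.57 and 0.99) with intervals that include 0 in *bri1-5*, and the interaction runs from -1.73 for *GA3OX1* to 0.40 for *RGL1*.

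The *bri1-5* mutation lowered all 5 genes where *phyB-77* was also present. *phyB-77 bri1-5* against *phyB-77* gave log2 differences of -1.38 for *GA3OX1*, -1.40 for *GA2OX1*, -0.96 for *GA2OX2*, -0.90 for *GID1B* and -0.57 for *RGL1*, with adjusted p between 2.4e-08 and 1.3e-04, and 6.44% of all probe sets were called higher and 9.51% lower. This comparison shares the *phyB-77* arrays with that of *phyB-77* against Ws-2, so that high values on those 3 arrays enter both. The comparison of *phyB-77 bri1-5* with *bri1-5* shares no array with that of *phyB-77* with Ws-2. There the *phyB-77* mutation raised 2 of the 5 genes, *GA2OX2* and *RGL1*, where 7.77% of all probe sets were called higher and 11.6% lower. The rise of *RGL1* is not independent of its naming, because the table that named it was ordered by its change in *bri1-5*. Set directly against *bri1-5*, *phyB-77* was higher for all 5 genes by 1.18 to 1.46, with adjusted p of 1.5e-07 or less, and 13.5% of all probe sets were called higher and 13.2% lower.

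Beyond these genes, the gibberellin pathway list held 36 genes of synthesis, inactivation, perception and repression, of which 11 were measured by a named probe set and 6 were named by the annotation. The other 25, such as the DELLA genes *GAI* and *RGA*, were not analysed here. Of the 11, 1 rose and 2 fell in *phyB-77 bri1-5* against Ws-2 (6.55% and 8.01% of all probe sets). Against Ws-2 6 rose in *phyB-77* (8.56% of all probe sets) and 4 fell in *bri1-5* (8.61%). Of the 6 that rose in *phyB-77*, 4 were not named by the annotation and are listed among the study's genes called in *phyB-77*. This count was therefore partly fixed by the naming and carries no weight for the pathway. Among the 6 genes named by the annotation, *GID1B* alone rose in *phyB-77* (median 0.18, against 0.01 over all probe sets), and *GID1A* and *GID1B* fell in *bri1-5* (median -0.22, against 0.01). In the double mutant *GID1B* alone was called among these 6, as lower (median -0.17, against -0.02).

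*GA20OX3*, which encodes an enzyme upstream of GA3OX, was the one that rose. Its log2 signal was 4.85 ± 0.16 in *phyB-77 bri1-5*, 5.08 ± 0.11 in *phyB-77*, 3.70 ± 0.08 in *bri1-5* and 3.66 ± 0.20 in Ws-2 (SD, n = 3 each). The rise with *phyB-77* was 1.15 in the *bri1-5* background (adjusted p = 2.8e-07) and 1.42 in Ws-2 (adjusted p = 1.5e-08), and its interaction of -0.27 was not called (adjusted p = 0.25). Its mean signal in every genotype was below the 5.09 that bounded the dimmest probe sets, so the size of these rises is uncertain. Of the 2 measured synthesis genes, *GA20OX3* was called for *phyB-77* in the *bri1-5* background and *GA3OX1* was not, and the difference between these genes was not tested. *GA20OX3* too was named through the study's tables.

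Both remaining receptor genes are named by the annotation. *GID1A* fell in *bri1-5* against Ws-2 by a log2 difference of -0.71 (standard error 0.14, adjusted p = 5.8e-04) and gave uncalled differences of -0.22 for *phyB-77 bri1-5* (adjusted p = 0.3) and 0.28 for *phyB-77* (adjusted p = 0.16). *GID1C* had -0.30 in *bri1-5* (adjusted p = 0.074). Set directly against *bri1-5*, *phyB-77* had higher signals of *GID1A* (0.99, adjusted p = 1.2e-05) and *GID1C* (0.47, adjusted p = 0.0043), as it had of *GID1B*. The F-box protein genes *SLY1* and *SNE*, which mark DELLA proteins for degradation, were not called in any comparison, with log2 differences of -0.21 to 0.19. *SPY*, which encodes a glycosyltransferase that modifies DELLA proteins, was lower in *phyB-77 bri1-5* than in *phyB-77* (-0.36, adjusted p = 0.0059).

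**Figure D4:**
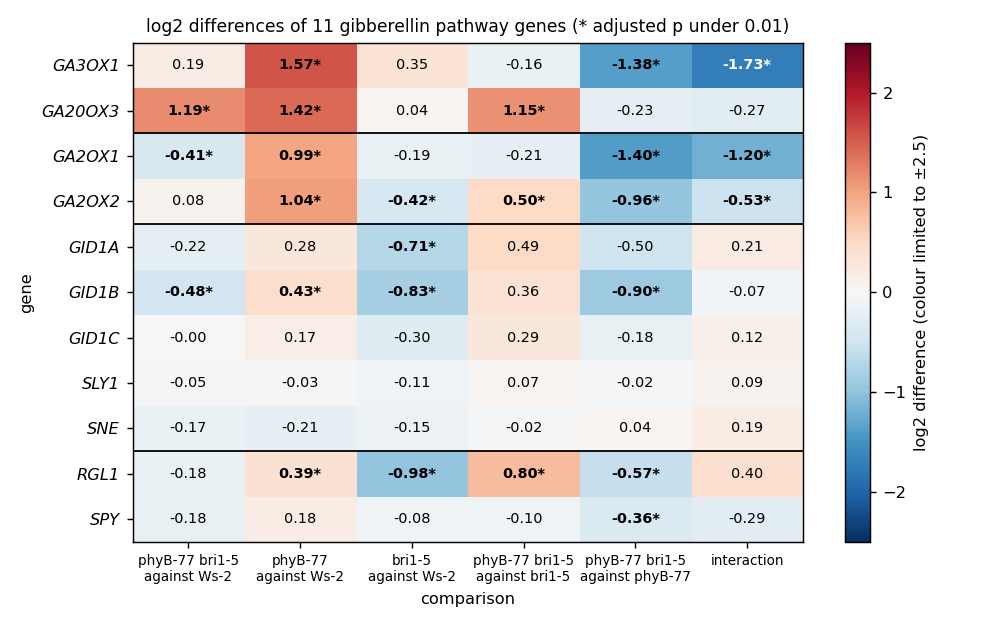
log2 differences (colour and numbers) of 11 measured gibberellin pathway genes (rows, separated into synthesis, inactivation, perception with F-box proteins, and repressors) in 5 comparisons and the interaction (columns), with an asterisk where the adjusted p was under 0.01. The column of *phyB-77* against Ws-2 holds 6 calls, all higher (8.56% of all probe sets). That of *phyB-77 bri1-5* against *phyB-77* holds 6, all lower (9.51% of all probe sets). Both columns use the *phyB-77* arrays, and most of the 6 higher calls are of genes listed among the study's genes called in *phyB-77*.

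Of 6 listed genes that DELLA proteins are known to induce, 3 were measured, and 2 of these, *XERICO* and *LBD40*, rose in both genotypes with *phyB-77*. Against Ws-2, 6.55% of all probe sets rose in the double mutant and 8.56% in the single mutant *phyB-77*. *LBD40* was measured here only because the study's tables of called genes name it, so its rise is not independent evidence. *XERICO*, a RING protein gene linked to abscisic acid and named by the annotation, had 8.93 ± 0.01 in *phyB-77 bri1-5*, 9.27 ± 0.05 in *phyB-77*, 7.62 ± 0.16 in *bri1-5* and 8.32 ± 0.08 in Ws-2. Against Ws-2, the double mutant was higher by 0.61 (adjusted p = 7e-05), *phyB-77* was higher by 0.95 (adjusted p = 3e-07) and *bri1-5* differed by -0.70 (adjusted p = 1.4e-05). For *XERICO*, *phyB-77 bri1-5* thus lay above Ws-2, whereas for *RGL1* these genotypes overlapped and were not called different. The difference between the 2 genes was not tested. *LBD40*, a gene of the LOB-domain family named through a table of genes called in *phyB-77*, had 1.53, 1.96 and -0.35 in the same comparisons, of which the last was not called (adjusted p = 0.02). Limma called no interaction among the 3 genes, and 2 of them had an unadjusted p under 0.05, 1 positive and 1 negative.

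The GASA genes encode small cysteine-rich peptides, several of which respond to gibberellin. Of 14 listed, 11 were measured and 6 were named by the annotation. Of the 11, 5 rose and 1 fell in *phyB-77 bri1-5* (6.55% and 8.01% of all probe sets), 4 rose and 1 fell in *phyB-77* (8.56% and 6.77%), and 1 rose and 3 fell in *bri1-5* (10.5% and 8.61%). The other 5 were measured here only because the study's tables of called genes name them. Among the 6 named by the annotation, 1 rose and 1 fell in each genotype with *phyB-77* and 2 fell in *bri1-5*. *GASA2* and *GASA3*, both named through the tables, rose by 3.73 and 3.82 in *phyB-77 bri1-5* and by 4.03 and 3.57 in *phyB-77*, where the seed markers also rose, with 0.06 and -0.07 in *bri1-5*. Their Ws-2 signals of 3.84 and 4.97 were below the 5.09 that bounded the dimmest probe sets, so the size of these rises is uncertain. *GASA9* moved the other way: it had 6.65 ± 0.10 in *phyB-77 bri1-5*, 4.87 ± 0.25 in *phyB-77*, 7.89 ± 0.09 in *bri1-5* and 7.61 ± 0.08 in Ws-2, and fell by 0.97 in *phyB-77 bri1-5* and by 2.75 in *phyB-77*. *GASA7* rose by 1.20 in *phyB-77 bri1-5* and by 0.83 in *phyB-77* and fell by 0.54 in *bri1-5*. The interaction was called for 4 of the 11 genes, and for 3 of the 6 named by the annotation, and was positive in each (4.82% of all probe sets). It was negative for the oxidase genes, a sign that is not independent of their naming.

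Among genes by which phytochrome is known to control gibberellin and abscisic acid in imbibed seeds, 6 of 9 were measured, all named through the study's tables. All 6 are in the table of genes called in *phyB-77*, so that their rise there was fixed by the naming and is given only as a description. In *phyB-77 bri1-5* 5 of them rose (6.55% of all probe sets), and in *bri1-5* 3 did (10.5%). *SOM*, which encodes a zinc-finger protein that lowers gibberellin synthesis in dark-imbibed seeds, had 8.25 ± 0.11 in *phyB-77 bri1-5*, 8.88 ± 0.18 in *phyB-77*, 6.26 ± 0.23 in *bri1-5* and 6.50 ± 0.29 in Ws-2, and rose by 1.75 and 2.38 in the genotypes with *phyB-77*. *PIF1*, a phytochrome-interacting factor gene, had 6.64 ± 0.11, 7.22 ± 0.11, 7.22 ± 0.19 and 6.22 ± 0.18 in the same order. It rose by 1.00 in each single mutant and had 0.42 in *phyB-77 bri1-5* (adjusted p = 0.0104), with a negative interaction of -1.58 (adjusted p = 1.5e-06). *ABI3*, a regulator of seed maturation, had rises of 0.62 in the double mutant and of 1.29 in *phyB-77*. Its Ws-2 signal of 3.89 was below the 5.09 that bounded the dimmest probe sets, so the size of these rises is uncertain. The interaction was negative for the 4 of 6 genes for which it was called (8.93% of all probe sets). It subtracts the difference between *phyB-77* and Ws-2, in which all 6 were called in the study. Its negative sign is therefore not independent of the naming either.

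**Figure D5:**
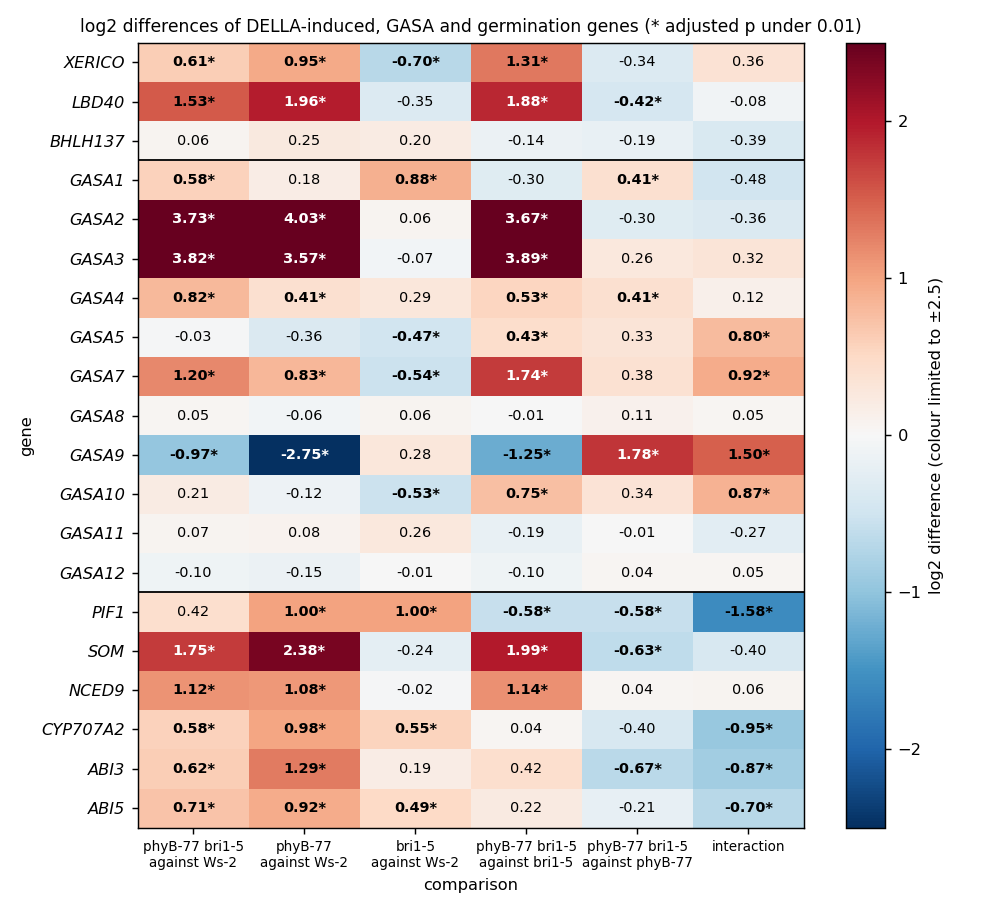
log2 differences (colour and numbers, colour limited at 2.5 in each direction) of 3 DELLA-induced genes, 11 GASA genes and 6 germination genes (rows) in 5 comparisons and the interaction (columns), with an asterisk where the adjusted p was under 0.01. Called interactions are positive for 4 GASA genes (4.82% of all probe sets) and negative for 4 germination genes (8.93%). The negative sign is not independent of the naming.

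The likeness of each gene's pattern to that of 14730 other probe sets with a single gene name was described by Pearson's r over the 12 log2 signals. The arrays share 4 genotypes, so r mostly reflects the genotype means, and 13 of the 15 genes given here were named through the study's tables. The closest to *GA3OX1* were the receptor-like protein gene *RLP33* (0.973), the heat shock gene *HSP70* (0.971) and the cold and drought gene *LTI78* (0.970). For *GA2OX1* they were *PDX1L4* (0.978), read by a probe set that may detect near-identical genes, and the anthocyanin genes *GSTF12* (0.978) and *UF3GT* (0.977). For *GA2OX2* they were *CYP71A13* of camalexin synthesis (0.990), *PDX2* of vitamin B6 synthesis (0.987) and the galactolipid synthase gene *MGD2* (0.982).

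The patterns nearest to *GID1B* were those of *SAHH2* of the methyl cycle (0.985), the wax and fatty acid elongation gene *KCS1* (0.979) and *PGDH* of serine synthesis (0.976). *RGL1* was closest to the cell wall protein genes *PRP2* (0.981) and *FLA13* (0.980) and to *At5g48900* (0.978). Among the 5 genes themselves r was highest between *GID1B* and *RGL1* (0.92) and lowest between *GA3OX1* and *RGL1* (0.52). Within genotypes the same pairs gave 0.19 and 0.29. Over the 15 nearest patterns, the correlation of the deviations from genotype means ran from -0.04 for *RGL1* with *FLA13* to 0.91 for *GA3OX1* with *HSP70*.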

How the data were processed

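RNA was measured in 12 samples, with 1 Affymetrix ATH1 array each. Per probe set, the values deposited by the authors were log2 signals made with RMA, which corrects background, equalizes the distributions of the arrays and summarizes probes. Its version, and whether all arrays were processed together, are not given in the sources used here. The file held 22810 probe sets, of which 64 controls were left out. A limma 3.58.1 model (R 4.3.3) held a mean for each genotype over all 12 arrays (8 residual and 9.85 prior degrees of freedom). Tests were two-sided, and p-values were adjusted over the 22746 probe sets. The number of arrays limits the precision, and the code was tested on simulated data. The annotation named 13513 tested probe sets by 1 gene, and the study's tables, used for names only, a further 1295, while 7435 had no name. Their fold changes and p-values were not used. Members and gene lists were chosen with earlier results of these data known. Named genes are the members, the listed genes, with values for up to 4 per list and comparison, and the 3 nearest patterns per member. For *GASA5*, *GASA10* and *CYP707A2*, values were added because their interaction was called. Replicate numbers did not pair the arrays. Alternatives were 2 other scalings, a variance trend, array weights, a replicate block, fewer arrays or probe sets, controls kept, other thresholds and each array left out. Tables were made with Python 3.11.15 and pandas 2.3.3.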

Additional observations from a re-analysis of the deposited data

Results flagged for a closer look

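The effect of *phyB-77* differed between the *bri1-5* and Ws-2 backgrounds for 11 listed genes, as tested by the interaction in limma. Measured were 11 pathway, 3 DELLA-induced, 11 GASA and 6 germination genes. Over all probe sets the interaction was called positive for 4.82% and negative for 8.93%. The oxidase and germination genes given here are listed among the study's genes called in *phyB-77*, so their negative sign is not independent of the naming. Among the oxidase genes the difference was -1.73 for *GA3OX1*, -1.20 for *GA2OX1* and -0.53 for *GA2OX2* on the log2 scale. The call of *GA2OX2* was lost under both other scalings (adjusted p = 0.031 and 0.033), with the replicate block (0.013) and in 8 of 12 fits without 1 array. Among the GASA genes it was 0.80 for *GASA5*, 0.92 for *GASA7*, 1.5 for *GASA9* and 0.87 for *GASA10*. Among the germination genes it was -1.58 for *PIF1*, -0.95 for *CYP707A2*, which encodes an abscisic acid-degrading enzyme, -0.87 for *ABI3* and -0.70 for *ABI5*.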

How the results depend on the processing

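Of 373 recomputed differences of the 5 genes under 11 alternatives, 345 kept their direction and their side of the threshold, 19 lost a call, 7 gained one and 2 changed sign. The same held for 385 of 420 differences recomputed without 1 array, where 32 lost a call, 2 gained one and 1 changed sign. The sign changes were of the interaction of *GID1B* (-0.07), which was 0.03 with arrays centred on their medians, 0.05 with quantile normalization and 0.02 without *bri1-5* replicate 1 (-0.16 to 0.02 over the fits without 1 array). In *phyB-77 bri1-5* against Ws-2, 2 genes were called, and 1 with centred arrays, a variance trend with robust estimation, only the arrays compared or dim probe sets left out, which removes *GA2OX1*. It was 0 where a fold change above 1.5 was also required. These are also the counts of pathway genes called lower there. The pathway gene called higher there, *GA20OX3*, is among the dim probe sets, so that 0 remained without them. In *phyB-77* against Ws-2, 5 genes were called, and 3 with centred arrays or the fold criterion. In *phyB-77 bri1-5* against *bri1-5*, 2 were called, and 1 with the fold criterion. An adjusted p under 0.05 added 1 pathway gene called higher in *bri1-5*, *GA3OX1*, where limma called 0 at 0.01. Except where fewer probe sets or a stricter criterion show it, the cause was not tested.

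Without 1 array, the genes called were 0 to 2 in *phyB-77 bri1-5* against Ws-2 (0 without Ws-2 replicate 1), 3 to 5 in *phyB-77* against Ws-2 (3 without Ws-2 replicate 1 or 2 or *phyB-77* replicate 1 or 3), 2 to 4 in *bri1-5* against Ws-2, 2 to 3 in *phyB-77 bri1-5* against *bri1-5*, 5 in *phyB-77 bri1-5* against *phyB-77* and in *phyB-77* against *bri1-5*, and 2 to 3 for the interaction. Pathway genes called higher and lower were 1 and 0 to 2 in *phyB-77 bri1-5*, 4 to 6 and 0 to 1 in *phyB-77*, and 0 to 1 and 3 to 4 in *bri1-5*. With array weights 5191 probe sets were called in *phyB-77 bri1-5* against Ws-2, against 3311 without. The split of all calls shifted with scaling. For the interaction it was 1097 positive and 2031 negative as deposited, 1659 and 1474 with centring, and 1439 and 1610 with quantile normalization. With centring, calls higher and lower were 1582 and 1983 in *phyB-77* against Ws-2 (1946 and 1541 as deposited) and 1906 and 1629 in *phyB-77 bri1-5* against *phyB-77* (1465 and 2163 as deposited). With the replicate number as a block, the interaction of *GA2OX2* was not called (adjusted p = 0.013), and 2 genes had an interaction. Deviations of same-numbered arrays correlated at -0.19 to 0.08, so that these numbers do not pair the arrays. Signals near background understate differences, which limits, among others, *GA2OX1*, *GA20OX3*, *GASA2*, *GASA3*, *ABI3* and *CYP707A2*.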
